A study of Homo sapiens with 6 samples.

Results

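The peroxisome proliferator-activated receptors (PPARs), 6 of the lipid-use genes they are known to control, and AQP3, an aquaglyceroporin, were followed in HCT116 cells in which MTA1 was lowered. These 10 genes are the receptor genes PPARA, PPARD and PPARG, the target genes ANGPTL4, PLIN2, CPT1A, PDK4, ACADVL and FABP5, and AQP3. All 10 were found by symbol among the 36651 genes of the deposited table, and all 10 passed the minimum level for testing. The list was chosen from measured values of the same comparison, in which ANGPTL4 and AQP3 had been seen among the largest differences. Levels and differences of the 10 genes are therefore given as a description. Their calls in the fit over all genes are counted once, beside the share of all genes called, and support nothing.

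HCT116 is an established line from a human colorectal carcinoma, grown as an epithelium. RNA came from 3 samples labelled siMTA1 and from 3 control samples, and MTA1 codes for a subunit of the nucleosome remodelling and deacetylase complex. The siMTA1 samples are titled CrMTA1 and the controls WT in the same labels, so the means of lowering MTA1 and the treatment of the controls are uncertain. No label states that the samples of a group were separate cultures, so a p-value covers sample-to-sample spread that could be purely technical. Levels are in FPKM, fragments per kilobase of gene scaled to the size of the library, a unit that allows genes to be compared. Values after ± are SDs over the 3 libraries of a group, and adjusted p-values are limma's.

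PPARs are nuclear receptors that bind fatty acids and their derivatives. Each pairs with a retinoid X receptor on DNA elements built from repeats of AGGTCA, and together they switch on genes for the uptake, storage and burning of fat. In the intestinal epithelium PPARD and PPARG are the forms best known in the colon, whereas PPARA is best known from the liver. ANGPTL4 is a secreted inhibitor of lipoprotein lipase that PPARs, hypoxia-inducible factors and glucocorticoids are all known to induce. AQP3 passes water and glycerol through the basolateral membrane of epithelial cells.

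The sequences around the starts of ANGPTL4, AQP3 and PLIN2 are shown because these were the genes of the list with the largest differences. Each window runs from 250 bases before to 50 bases after the gene's start in RefSeq (GRCh38.p14) and is written 5′ to 3′ on the gene's strand. The ANGPTL4 window is chr19:8363905-8364204 on the plus strand. The AQP3 window is chr9:33447544-33447843 and the PLIN2 window chr9:19127443-19127742, both on the minus strand. Capitals mark the letters searched on either strand, which were AGGTCA (the PPAR element's repeat unit), ACGTG and GCGTG (cores of the hypoxia response element) and TATAAA (the TATA box). The letters to search were picked with the expression values known.
ANGPTL4: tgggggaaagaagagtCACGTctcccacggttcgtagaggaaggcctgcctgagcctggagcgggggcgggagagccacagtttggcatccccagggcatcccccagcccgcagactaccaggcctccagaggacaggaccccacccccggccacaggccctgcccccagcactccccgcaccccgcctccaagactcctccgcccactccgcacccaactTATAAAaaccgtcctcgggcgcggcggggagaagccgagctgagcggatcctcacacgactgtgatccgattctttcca
AQP3: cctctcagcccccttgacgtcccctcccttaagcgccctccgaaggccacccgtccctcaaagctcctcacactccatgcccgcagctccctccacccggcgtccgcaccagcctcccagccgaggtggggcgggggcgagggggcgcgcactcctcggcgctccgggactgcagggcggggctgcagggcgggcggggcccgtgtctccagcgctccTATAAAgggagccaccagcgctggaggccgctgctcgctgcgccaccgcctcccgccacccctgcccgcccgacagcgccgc
PLIN2: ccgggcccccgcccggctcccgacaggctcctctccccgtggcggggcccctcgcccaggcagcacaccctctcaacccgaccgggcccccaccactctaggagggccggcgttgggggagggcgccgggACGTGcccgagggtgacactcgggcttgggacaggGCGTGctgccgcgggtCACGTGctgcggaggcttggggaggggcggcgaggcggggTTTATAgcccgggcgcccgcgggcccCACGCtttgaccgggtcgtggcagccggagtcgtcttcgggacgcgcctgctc

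TATAAA was found on the gene's own strand in the windows of ANGPTL4 and AQP3, with its first base at -29 and -32 from the start. Of all 35116 RefSeq windows of this length, 2.17% held it on the gene's strand with the first base 35 to 25 bases before the start, and 11.5% held it anywhere on either strand. Over the 12391 windows of tested genes, to which all the members belong, these shares were 1.19% and 5.50%. In the PLIN2 window it lay on the other strand, from -29. AGGTCA occurred in none of these 3 windows, against 13.8% of all windows and 9.99% of those of tested genes. Among the 9 genes searched it was found in PPARG windows alone. No direct repeat of it with 1 base between was found in any window. That repeat, the form that PPARs are known to bind, occurred in 0.0228% of all windows and 0.0404% of those of tested genes. Only the exact letters were searched, and a form this rare was unlikely to be met in so few windows. Its absence therefore says nothing of whether PPARs act on any of these genes. ACGTG was present once in the ANGPTL4 window, from -234 on the other strand, and it was absent from the AQP3 window. PLIN2 held ACGTG from -120 and, within the palindrome CACGTG, on both strands from -69 and -68, and GCGTG from -85 and, on the other strand, from -3. ACGTG lay in 21.4% of all windows and 25.8% of those of tested genes, and GCGTG in 36.5% and 49.6%. The known PPAR element of ANGPTL4 lies in an intron, outside this window, so the absence of letters here says nothing of the receptor.

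In the whole-table test, a gene was called where its adjusted p was under 0.05 (limma on log2(FPKM + 1), Benjamini-Hochberg over the 12141 genes whose mean reached 1 FPKM). Calls covered 18.2% of tested genes, 6.13% higher and 12.1% lower with siMTA1. The split depends on the scaling: 744 genes were higher and 1463 lower as deposited, 1000 and 939 after upper-quartile scaling, 1012 and 896 after quantile normalization, and 1128 and 802 after median centring, which was chosen after the data were seen. Counts fell to 388 higher and 658 lower without control library 2, and to 428 and 640 without siMTA1 library 2. MTA1 itself was at 44.55, 43.98 and 47.97 FPKM in siMTA1 libraries 1, 2 and 3, against 65.90, 67.61 and 66.74 FPKM in control libraries 1, 2 and 3. It thus kept 68.2% of its control mean (exact two-sided permutation p = 0.1, the smallest that 3 against 3 libraries allow). Low values of short genes fell on steps that imply 57600000 to 66200000 fragments in siMTA1 libraries and 42800000 to 64400000 in control libraries. Of 10 markers of colon epithelium, 7 reached the test, of which CDH1 was called higher and KRT8 and KRT18 lower. The 10 summed to 5660.95 to 6305.65 FPKM in siMTA1 libraries and 6559.48 to 6873.66 FPKM in control libraries, and the part of this in the differences below was not tested. VIL1 and LGALS4, which mark mature enterocytes, averaged under 0.03 FPKM in both groups, as did CDX1. KRT20, of the same 10, was at 5.38, 4.81 and 5.10 FPKM in siMTA1 libraries 1, 2 and 3. In control libraries 1, 2 and 3 it was at 4.46, 3.95 and 4.46 FPKM, with no overlap (log2 difference 0.21, limma adjusted p = 0.0610). All 7 adipocyte, 6 hepatocyte and 5 endothelial markers stayed under a mean of 1 FPKM, with ADIPOQ and LEP listed at 0 in every library, as did the 5 leukocyte markers in the table. Of the 5 fibroblast markers in the table, COL1A1 alone reached the test. It was at 2.13, 2.65 and 2.33 FPKM in siMTA1 libraries 1, 2 and 3 and at 1.90, 1.79 and 1.97 FPKM in control libraries 1, 2 and 3, with no overlap (log2 difference 0.22, limma adjusted p = 0.0671). The summed fibroblast markers were at 2.17 to 2.76 FPKM with siMTA1 and 1.94 to 2.01 FPKM in control, and their part in the differences was not tested.

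Among the 10 genes, 3 were called higher with siMTA1 and 0 lower, beside the 6.13% of all tested genes called higher. Those 3 were ANGPTL4, AQP3 and PLIN2, and nothing is read from the count because the list was made with this comparison in view. Without ANGPTL4 and AQP3, 1 of 8 was called. Values of the groups did not overlap in 6 of the 10, all higher with siMTA1, where 13.2% of all tested genes were higher and 25.9% lower in that way. The median difference of the 10 genes was 0.18 on the log2(FPKM + 1) scale, against -0.05 for all tested genes, and it was 0.16 for the 8 others. This scale understates the change of genes with low levels. In bulk RNA, a change in the number of cells that express a gene and a change in RNA per cell cannot be told apart.

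**Figure D1:**
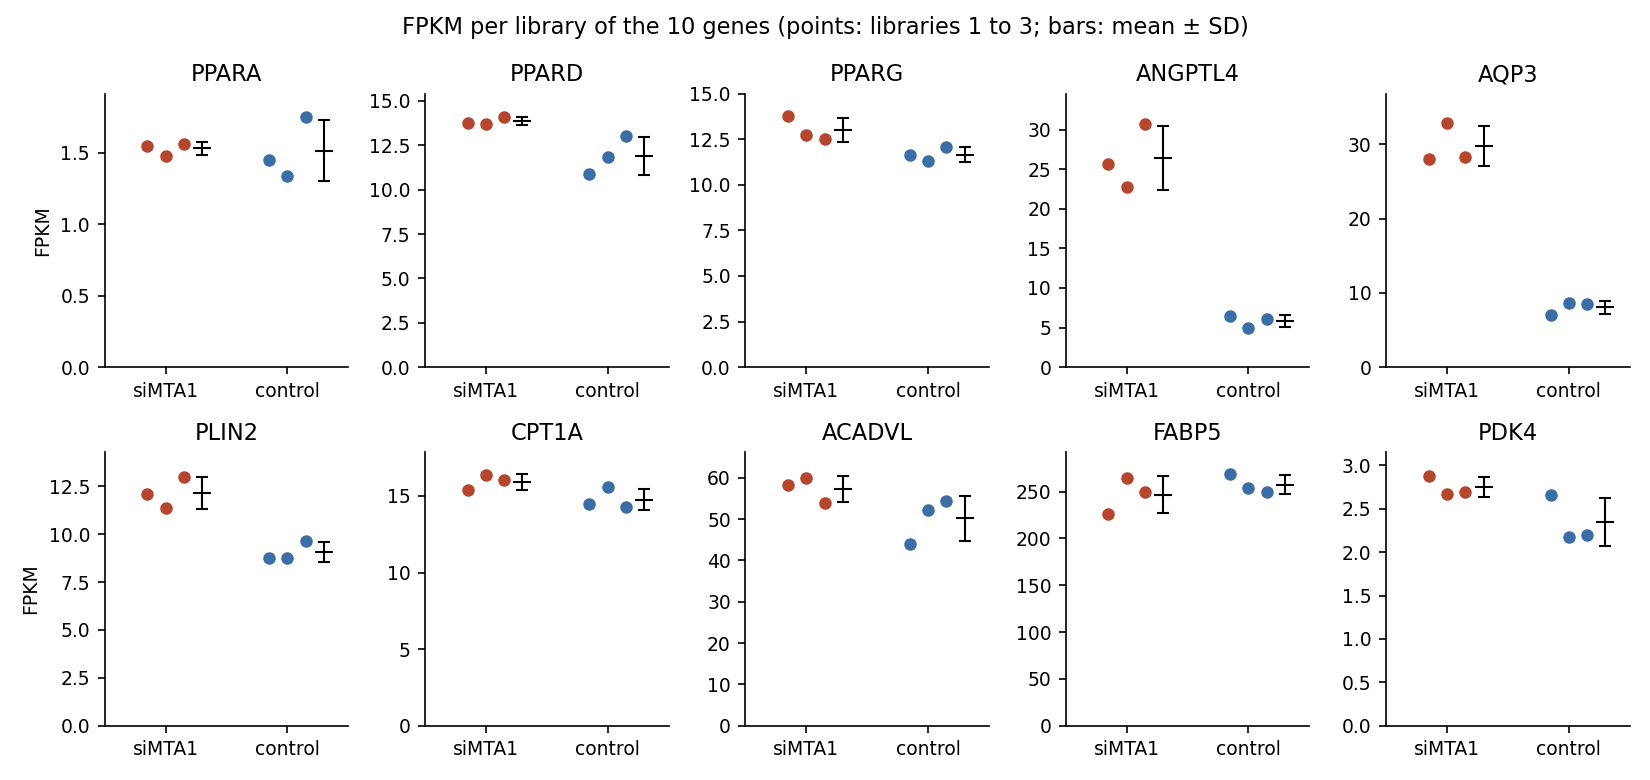
FPKM of the 10 genes in each library, with siMTA1 libraries in red at the left, control libraries in blue at the right, and the mean ± SD (n = 3) as black bars; each panel starts at 0. ANGPTL4 lay between 22.77 and 30.72 FPKM in siMTA1 libraries and between 5.01 and 6.46 FPKM in control libraries, whereas FABP5, CPT1A, ACADVL and PPARA overlapped between the groups.

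The receptor genes PPARD and PPARG stood at similar levels, and PPARA was far lower. Loci are given on GRCh38 from GENCODE 29. PPARD (ENSG00000112033.13, chr6:35342558-35428191, plus strand) was at 13.75, 13.69 and 14.11 FPKM in siMTA1 libraries 1, 2 and 3, against 10.90, 11.82 and 13.02 FPKM in control libraries 1, 2 and 3. Every siMTA1 value lay above every control value, with a log2 difference of 0.20 (SE 0.07). PPARG (ENSG00000132170.19, chr3:12287368-12434356, plus strand), the receptor that directs fat cell formation, was at 13.77, 12.74 and 12.52 FPKM with siMTA1 and at 11.62, 11.29 and 12.07 FPKM in control. Its groups did not overlap either, and its log2 difference was 0.15 (SE 0.06). PPARA (ENSG00000186951.16, chr22:46150521-46243756, plus strand) was at 1.55, 1.48 and 1.56 FPKM with siMTA1, inside the control range of 1.34 to 1.75 FPKM, with a log2 difference of 0.01 (SE 0.08).

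PPARA made up 5.30% to 5.53% of the summed receptor FPKM in siMTA1 libraries and 5.48% to 6.52% in control libraries. The sum of the 3 receptors was 27.91 to 29.07 FPKM with siMTA1 and 23.97 to 26.84 FPKM in control, so its ranges did not overlap.

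ANGPTL4 (ENSG00000167772.11) showed the largest difference of the list. Its locus is chr19:8363289-8374373, plus strand. It was at 25.70, 22.77 and 30.72 FPKM in siMTA1 libraries 1, 2 and 3, against 6.46, 5.01 and 6.11 FPKM in control libraries 1, 2 and 3. The lowest siMTA1 value was thus far above the highest control value. Means were 26.4 ± 4.02 FPKM with siMTA1 and 5.86 ± 0.757 FPKM in control (SD, n = 3 each), a ratio of 4.50 and a log2 difference of 1.99 (SE 0.11). That placed ANGPTL4 at rank 4 of 12141 genes by log2 difference. It was also among the more variable genes of the list, with a coefficient of variation of 15.2% in siMTA1 libraries and 12.9% in control libraries.

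None of the other ANGPTL genes in the table reached 0.2 FPKM in any library, the highest value being 0.18 FPKM for ANGPTL6. ANGPTL4 therefore made up at least 99.2% of the family's FPKM with siMTA1 and at least 96.2% in control. LPL, the lipase that ANGPTL4 inhibits, reached no more than 0.01 FPKM in any library, and GPIHBP1, which anchors the lipase on capillaries, no more than 0.02 FPKM. Of the 16 genes on the list of lipoprotein lipase and ANGPTL genes, 4 were tested and 0 were called, beside 18.2% of all tested genes. Their unadjusted limma p was under 0.05 in 0 of the 4 as well. Among them LIPG, the endothelial lipase, averaged 1.78 ± 0.150 FPKM with siMTA1 and 2.05 ± 0.0924 FPKM in control (log2 difference -0.13, limma adjusted p = 0.205). LMF2, a relative of the lipase maturation factor, and SEL1L, which lipoprotein lipase needs to leave the endoplasmic reticulum, had log2 differences of -0.05 (adjusted p = 0.743) and 0.04 (adjusted p = 0.713).

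AQP3 (ENSG00000165272.14) was the other gene with a large difference. Its locus is chr9:33441154-33447633, minus strand. Levels were 28.08, 32.82 and 28.35 FPKM in siMTA1 libraries 1, 2 and 3 and 7.02, 8.60 and 8.51 FPKM in control libraries 1, 2 and 3. Each siMTA1 library was more than 3-fold above each control library. Means were 29.75 ± 2.66 FPKM with siMTA1 and 8.04 ± 0.887 FPKM in control (SD, n = 3 each), a ratio of 3.70 and a log2 difference of 1.77 (SE 0.09), which was rank 5 of 12141.

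AQP3 was the only aquaporin gene of the 10 in the table to reach the test. The other 9 stayed at or below 0.37 FPKM, the highest being AQP1, so that AQP3 held 98.0% to 98.6% of aquaporin FPKM with siMTA1 and 93.9% to 95.2% in control. AQP7, a further glycerol channel and a known PPARG target of fat cells, was at 0.15, 0.22 and 0.14 FPKM with siMTA1 and at 0.12, 0.12 and 0.13 FPKM in control. AQP10, which also passes glycerol, did not exceed 0.02 FPKM in any library.

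The list of glycerol use holds genes that act on glycerol or on glycerol-3-phosphate, and too few of them were tested to read a result. Of 4 tested genes, 0 were called higher and 1 lower, beside 6.13% and 12.1% of all tested genes. All 4 differences were negative, as were 7496 of the 12141 over all tested genes. GPD1L, related to the glycerol-3-phosphate dehydrogenase of the cytosol, averaged 6.02 ± 0.539 FPKM with siMTA1 and 7.89 ± 0.208 FPKM in control (SD, n = 3 each, log2 difference -0.34, limma adjusted p = 0.00972). PGP, a phosphatase that can release glycerol from glycerol-3-phosphate, had a log2 difference of -0.16 (adjusted p = 0.0846), and the mitochondrial dehydrogenase GPD2 one of -0.12 (adjusted p = 0.268).

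**Figure D2:**
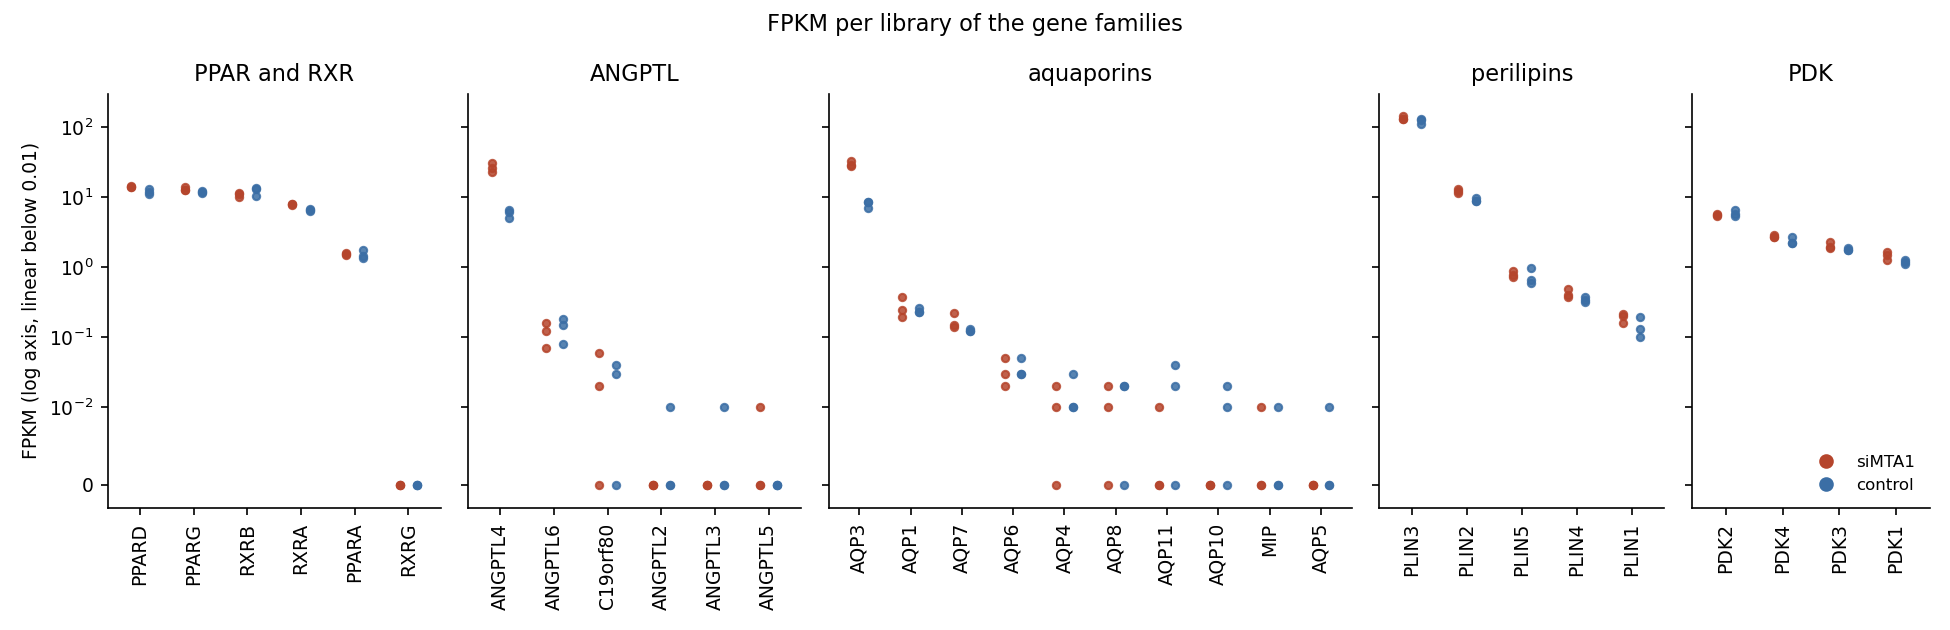
FPKM per library of the PPAR and RXR, ANGPTL, aquaporin, perilipin and pyruvate dehydrogenase kinase (PDK) genes in the table, on a log axis that is linear below 0.01, with siMTA1 libraries in red at the left of control libraries in blue. C19orf80 is the table's symbol for ANGPTL8; ANGPTL4 and AQP3 stand alone in their families, whereas PLIN3 lies above PLIN2 and PDK2 above PDK4.

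PLIN2 (ENSG00000147872.9, chr9:19108375-19149290, minus strand) codes for a protein that coats lipid droplets and is a common readout of PPAR activity. It was at 12.12, 11.35 and 13.01 FPKM in siMTA1 libraries 1, 2 and 3, against 8.75, 8.77 and 9.66 FPKM in control libraries 1, 2 and 3. The groups did not overlap, but the ratio of means was only 1.34, with a log2 difference of 0.39 (SE 0.07) and rank 256 of 12141. PLIN3, the perilipin with the highest level, averaged 134.9 ± 7.59 FPKM with siMTA1 and 121.9 ± 9.42 FPKM in control (log2 difference 0.15, adjusted p = 0.167). PLIN1, PLIN4 and PLIN5, which fat and muscle cells use most, stayed under 1 FPKM in every library.

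Genes of lipid droplets, triglyceride synthesis and lipolysis went both ways. Of 15 tested, 2 were called higher and 1 lower, a share of 20% beside 18.2% of all tested genes. HILPDA, a hypoxia-inducible droplet protein that inhibits triglyceride breakdown, was at 13.85, 12.29 and 16.07 FPKM in siMTA1 libraries 1, 2 and 3 and at 7.58, 7.39 and 6.96 FPKM in control libraries 1, 2 and 3 (log2 difference 0.85, limma adjusted p = 0.000396). GPAM, which starts triglyceride synthesis, had a log2 difference of 0.24 (adjusted p = 0.0410). DGAT1, which completes it, averaged 4.34 ± 0.223 FPKM with siMTA1 and 5.70 ± 0.633 FPKM in control (log2 difference -0.32, adjusted p = 0.0203). Leaving out any 1 library except control 1 ended the GPAM call (adjusted p = 0.0717 to 0.137). The DGAT1 call ended without siMTA1 library 1 or 3 or control library 2 or 3 (adjusted p = 0.0510 to 0.0630).

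The genes of fatty acid burning on the list moved little. CPT1A (chr11:68754620-68844410, minus strand), the carnitine transferase that admits long fatty acids to mitochondria, was at 15.37, 16.37 and 16.03 FPKM with siMTA1 and at 14.49, 15.56 and 14.26 FPKM in control, with overlapping groups and a log2 difference of 0.10 (SE 0.06). ACADVL (chr17:7217125-7225273, plus strand), the first dehydrogenase of long-chain oxidation, was at 58.16, 60.06 and 53.88 FPKM with siMTA1 and at 44.00, 52.29 and 54.38 FPKM in control. Control library 3 exceeded siMTA1 library 3, and the log2 difference was 0.19 (SE 0.08).

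Across the 30 tested genes of fatty acid oxidation and the carnitine shuttle beyond CPT1A and ACADVL, 0 were called higher and 1 lower, 3.33% beside 18.2% of all tested genes. The median difference was -0.01, against -0.05 for all tested genes. The gene called was ACADSB, a dehydrogenase of short branched chains, at 4.87 ± 0.431 FPKM with siMTA1 and 6.17 ± 0.206 FPKM in control (SD, n = 3 each, log2 difference -0.29, adjusted p = 0.0196). ECHS1, a hydratase of the same cycle, had a log2 difference of -0.20 (adjusted p = 0.0713) and ETFDH, which passes its electrons to ubiquinone, one of 0.19 (adjusted p = 0.0884). The ACADSB call ended without siMTA1 library 3 (adjusted p = 0.0516) or control library 2 (adjusted p = 0.0623), and ECHS1 was called without siMTA1 library 3 (adjusted p = 0.0334).

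FABP5 (chr8:81280363-81284777, plus strand), a fatty acid carrier that can deliver ligand to PPARD, had the highest level of the list. It was at 225.74, 264.82 and 249.94 FPKM in siMTA1 libraries 1, 2 and 3 and at 268.56, 254.24 and 249.27 FPKM in control libraries 1, 2 and 3. The groups overlapped, and its log2 difference of -0.06 (SE 0.07) was the negative one of the 10. FABP5 has processed pseudogenes, and the 8 in the table stayed at or below 0.35 FPKM each. How reads that match several of these copies were counted is unstated, so the FABP5 level is uncertain to that extent.

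The wider list of fatty acid uptake, binding and activation held 13 tested genes, 2 called higher and 2 lower, 30.8% beside 18.2% of all tested genes. ACSL5, which activates long fatty acids and is a known PPAR target, averaged 53.2 ± 2.25 FPKM with siMTA1 and 42.6 ± 1.92 FPKM in control (SD, n = 3 each, log2 difference 0.31, adjusted p = 0.00794). The related ACSL4 was lower (log2 difference -0.28, adjusted p = 0.0248), as was the very-long-chain fatty acid transporter SLC27A2 (log2 difference -0.26, adjusted p = 0.0203). FABP6, the bile acid carrier of the ileum, was the other higher gene (log2 difference 0.26, adjusted p = 0.0472), and it was named after its values were seen. Without siMTA1 library 2 the adjusted p was 0.0899 for ACSL4, 0.0717 for SLC27A2 and 0.134 for FABP6, and without control library 2 it was 0.0903, 0.0832 and 0.123. The ACSL4 call also ended without control library 1 (adjusted p = 0.0599). Under quantile normalization and median centring the adjusted p was 0.0576 and 0.0570 for ACSL4 and 0.0514 and 0.0542 for SLC27A2. The call of FABP6 ended without siMTA1 library 3 and without control library 1 or 3 (adjusted p = 0.0741 to 0.0926), and without the trend of spread on level (adjusted p = 0.0551).

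PDK4 (chr7:95583499-95596491, minus strand), the kinase that shuts off pyruvate dehydrogenase when fat is burned, was low. It was at 2.88, 2.67 and 2.69 FPKM in siMTA1 libraries 1, 2 and 3, just above the 2.66, 2.18 and 2.2 FPKM of control libraries 1, 2 and 3. The groups did not overlap by a margin of 0.01 FPKM, and the log2 difference was 0.17 (SE 0.07). The family members PDK1 (log2 difference 0.17, adjusted p = 0.142), PDK2 (-0.06, adjusted p = 0.593) and PDK3 (0.11, adjusted p = 0.301) were not called.

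Of the 12 genes of pyruvate dehydrogenase, its kinases other than PDK4, its phosphatases and the pyruvate carrier, 0 were called higher and 2 lower, 16.7% beside 18.2% of all tested genes. MPC1, a subunit of the mitochondrial pyruvate carrier, was at 10.54, 9.44 and 10.24 FPKM with siMTA1 and at 13.46, 13.46 and 13.87 FPKM in control (log2 difference -0.40, adjusted p = 0.00284). Its partner MPC2 had a log2 difference of -0.23 (adjusted p = 0.0725). PDHX, a structural part of the dehydrogenase, had one of -0.29 (adjusted p = 0.0266), a call that ended without siMTA1 library 2 or 3 or control library 1 or 2 (adjusted p = 0.0595 to 0.0944), under quantile normalization (adjusted p = 0.0608) and under median centring (adjusted p = 0.0551). MPC2 was called without control library 1 (adjusted p = 0.0239).

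**Figure D3:**
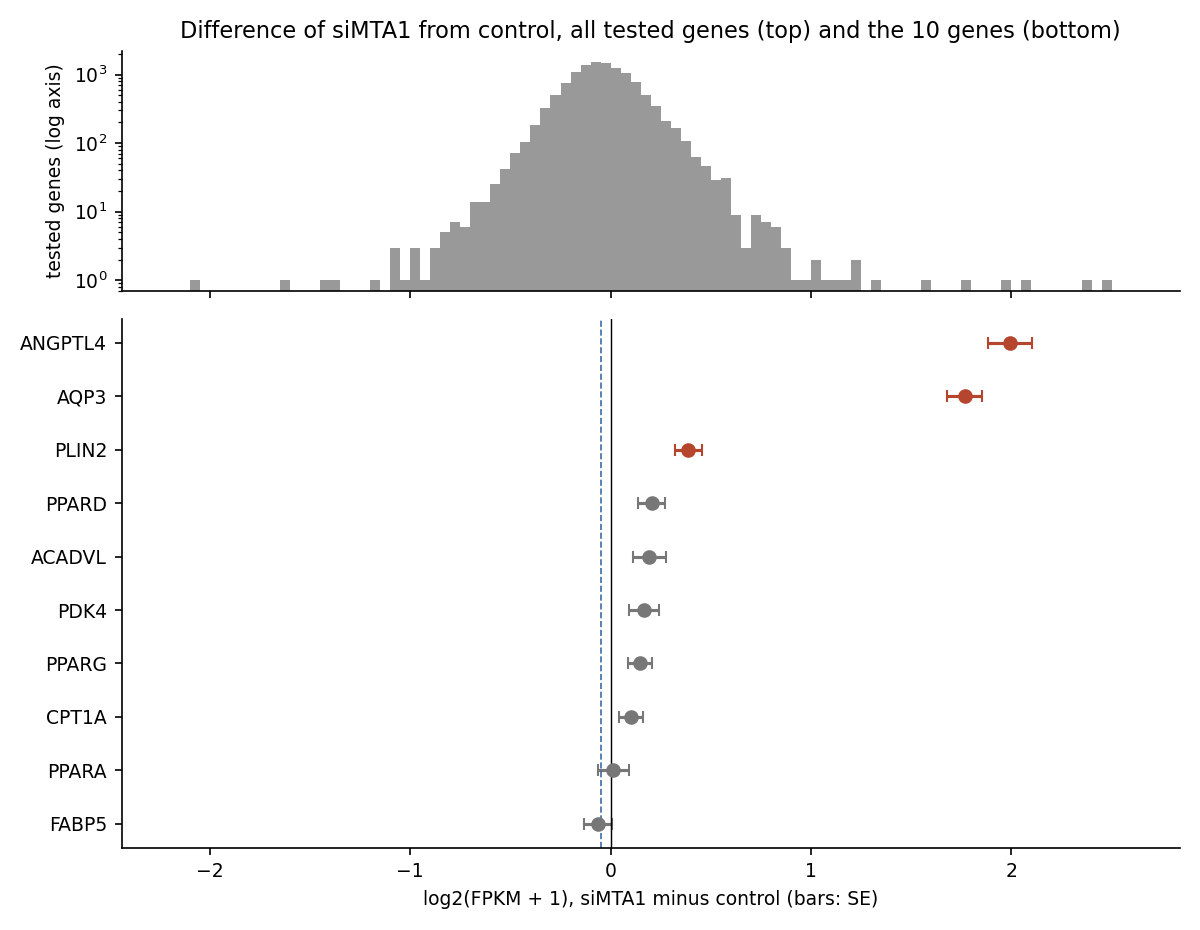
Difference of siMTA1 from control on the log2(FPKM + 1) scale, as a histogram of the 12141 tested genes (top, log axis) and for each of the 10 genes with its SE (bottom); red points were called, and the dashed line is the median of all tested genes, -0.05. ANGPTL4 at 1.99 and AQP3 at 1.77 stand far from PLIN2 at 0.39 and from the other 7 genes, which lay between -0.06 and 0.20.

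By mean level, the 10 genes kept much of their order between the groups, apart from ANGPTL4 and AQP3. FABP5 and ACADVL ranked 1 and 2 and PDK4 and PPARA 9 and 10 in both groups. AQP3 ranked 3 with siMTA1 and 7 in control, and ANGPTL4 ranked 4 with siMTA1 and 8 in control. Within siMTA1 libraries the values of AQP3 and ANGPTL4 overlapped, and those of PPARG overlapped with both PPARD and PLIN2. Within control libraries PPARD and PPARG overlapped, whereas PLIN2, AQP3 and ANGPTL4 followed each other without overlap.

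The partners and coregulators of PPARs were called higher in 3 of 13 tested genes and lower in 0, 23.1% beside 18.2% of all tested genes. RXRA, a retinoid X receptor, was at 7.79, 8.0 and 7.88 FPKM in siMTA1 libraries 1, 2 and 3, above the 6.46, 6.32 and 6.78 FPKM of control libraries 1, 2 and 3 (log2 difference 0.24, adjusted p = 0.0180). HELZ2, a coactivator known to bind PPARA, had a log2 difference of 0.31 (adjusted p = 0.0206). RXRB was not called (log2 difference -0.16, adjusted p = 0.266), and RXRG was listed at 0 in all 6 libraries. Under 2 of the 17 alternatives RXRB was called lower, without control library 1 (adjusted p = 0.0354) and with array weights (adjusted p = 0.0239). PPARGC1A, the coactivator best known for driving fat oxidation in muscle and liver, did not exceed 0.02 FPKM. Its relative PPARGC1B was at 1.12, 1.10 and 1.38 FPKM with siMTA1 and at 1.17, 1.29 and 1.21 FPKM in control (log2 difference -0.02, adjusted p = 0.892). The RXRA call ended without control library 2 (adjusted p = 0.0821) or siMTA1 library 2 (adjusted p = 0.0601). The HELZ2 call ended without any 1 of the siMTA1 libraries (adjusted p = 0.0522 to 0.0551).

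Other known PPAR targets were called no more often than all tested genes, and nothing is read from that share. Of 50 such genes chosen beyond the list, 45 were in the table and 23 were tested, of which 1 was called higher and 2 lower, 13% beside 18.2% of all tested genes. Their median difference was -0.01. The genes called were ACSL5, SLC27A2 and FADS2, a desaturase at 1.68 ± 0.0854 FPKM with siMTA1 and 2.30 ± 0.155 FPKM in control (SD, n = 3 each, log2 difference -0.30, adjusted p = 0.0168). The FADS2 call ended without siMTA1 library 1 (adjusted p = 0.0536) or control library 2 (adjusted p = 0.0702), and that of SLC27A2 without library 2 of either group and under quantile normalization and median centring, as given above. Targets known from fat cells or liver were mostly too low to test, among them CD36 and FABP4, which stayed at or below 0.08 FPKM. This list shares genes with those of fatty acid oxidation, uptake and lipid droplets.

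**Figure D4:**
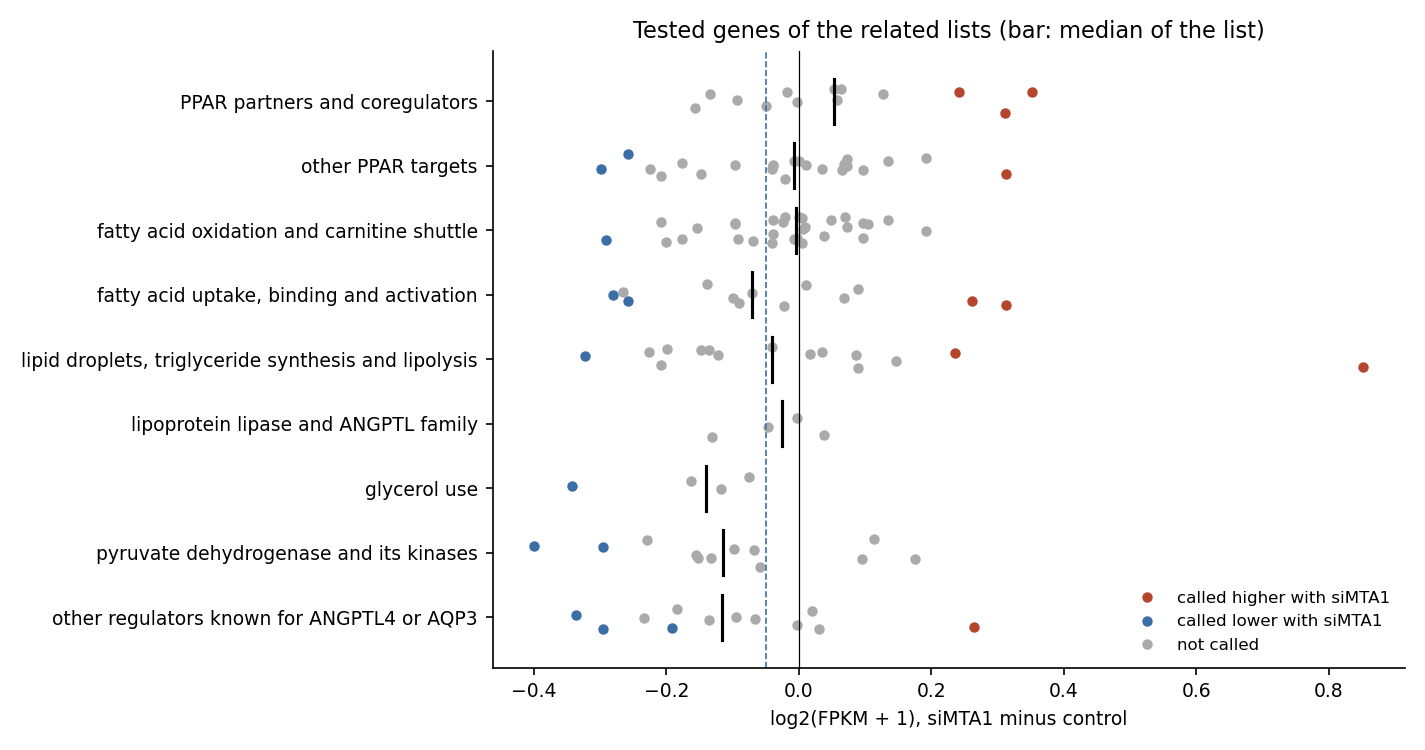
Difference of siMTA1 from control on the log2(FPKM + 1) scale for the tested genes of 9 related lists, with genes called higher in red, called lower in blue and not called in grey; black bars are list medians and the dashed line is the median of all tested genes. HILPDA at 0.85 lies apart, and the list medians run from -0.14 for glycerol use to 0.05 for PPAR partners and coregulators; no aquaporin besides AQP3 could be tested, so that list is not drawn.

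Regulators other than PPARs that are known to act on ANGPTL4 or AQP3 were called higher in 1 of 12 tested genes and lower in 3, 33.3% beside 18.2% of all tested genes. HIF1A, the oxygen-regulated factor, was at 28.61, 25.33 and 23.42 FPKM in siMTA1 libraries 1, 2 and 3, below the 33.11, 32.04 and 32.99 FPKM of control libraries 1, 2 and 3 (log2 difference -0.34, adjusted p = 0.0135). NR1H2, an oxysterol receptor, was also lower (log2 difference -0.30, adjusted p = 0.0131), as was SMAD3, a mediator of TGF-beta signalling (log2 difference -0.19, adjusted p = 0.0416), which was named after its values were seen. RARA, a retinoic acid receptor, was higher (log2 difference 0.26, adjusted p = 0.0257), whereas RARG was not called (log2 difference 0.02, adjusted p = 0.869). The HIF1A call ended without siMTA1 library 2 (adjusted p = 0.0521) and that of NR1H2 without control library 2 (adjusted p = 0.0588). Leaving out any 1 library except siMTA1 3 ended the SMAD3 call (adjusted p = 0.0606 to 0.120), and any 1 except control 3 ended that of RARA (adjusted p = 0.0516 to 0.0947). The SMAD3 call also ended under upper-quartile scaling (adjusted p = 0.0984), quantile normalization (adjusted p = 0.0803), median centring (adjusted p = 0.114) and without the trend of spread on level (adjusted p = 0.0550).

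Over all lists, each gene counted once, 8 of 108 tested genes were called higher and 11 lower, 17.6% beside 18.2% of all tested genes. Those counts were 3 higher and 3 lower without control library 2 and 3 and 6 without siMTA1 library 2. With siMTA1 library 1 or 3 left out, 5 and 4 genes were called higher. HILPDA, ACSL5 and MPC1 were called under each of the 17 alternatives. With no filter on low values, these and RXRA were the list genes still called.

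The genes with the profile most like that of ANGPTL4 over the 6 libraries were VGF, AQP3, ANKRD37, NDRG1 and EGR1. Likeness was the root mean square difference between log2(FPKM + 1) profiles, each centred on its mean, among genes whose mean reached 5 FPKM. Profiles were not scaled, so the size of the difference between the groups weighs most in this distance. Genes near ANGPTL4 or AQP3 are therefore largely bound to be others much higher with siMTA1, and no shared control is read from it. It was 0.17 for VGF, a precursor of neuroendocrine peptides, 0.27 for AQP3 and 0.28 for ANKRD37, a target of hypoxia-inducible factors. Within the siMTA1 libraries, ANGPTL4 was highest in library 3 and lowest in library 2, an order that 20.7% of all tested genes had. Of its 5 neighbours, ANKRD37 and NDRG1 had it and VGF, AQP3 and EGR1 did not. ANKRD37 stood at 32.67, 28.04 and 37.63 FPKM in siMTA1 libraries 1, 2 and 3 and at 6.83, 4.12 and 4.46 FPKM in control libraries 1, 2 and 3. NDRG1, a stress gene also induced by low oxygen, was at 136.61, 121.88 and 167.22 FPKM in siMTA1 libraries 1, 2 and 3 and at 59.68, 56.85 and 63.17 FPKM in control libraries 1, 2 and 3.

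For AQP3 the nearest profiles were VGF, ANGPTL4, EGR1, NDRG1 and BMP4, at distances of 0.18 to 0.35. AQP3 differed from ANGPTL4 within the siMTA1 group, being highest in library 2, where ANGPTL4 was lowest. VGF had the order of AQP3, as did 12.9% of all tested genes, at 75.87, 82.90 and 77.80 FPKM in siMTA1 libraries 1, 2 and 3, against 18.31, 18.00 and 18.09 FPKM in control libraries 1, 2 and 3. The order of 3 libraries is a description and was not tested.

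**Figure D5:**
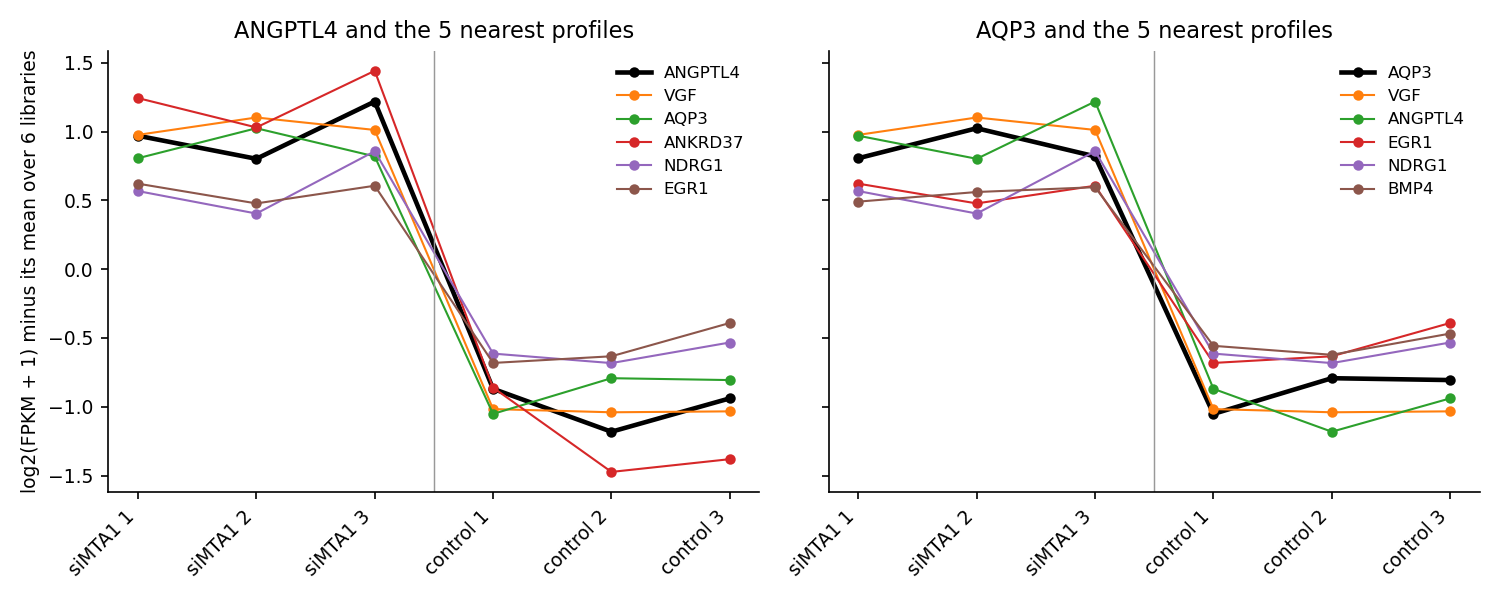
Profiles over the 6 libraries of ANGPTL4 (left) and AQP3 (right), in black, with the 5 genes nearest to each in colour; the vertical axis is log2(FPKM + 1) minus the gene's mean over the libraries, and siMTA1 libraries are left of the grey line. All genes drawn are above their mean in the 3 siMTA1 libraries and below it in the 3 control libraries, which the measure of likeness favours.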

How the data were processed

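PolyA RNA was sequenced from 3 siMTA1 and 3 control samples of HCT116 as directional paired-end libraries, per the labels' protocols. The authors deposited 1 table of FPKM, printed to 2 decimals, and each column was matched to a sample by its name. The submitters' processing notes name cutadapt, TopHat2, edgeR and GRCh38. How fragments were counted, with which strand setting, annotation and lengths, is not stated there. No counts were used.

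The 12141 genes whose mean reached 1 FPKM were tested on log2(FPKM + 1) using limma 3.58.1 under R 4.3.3, with a trend of spread on level, two-sided, without covariates, after a trial on simulated data. P-values were adjusted by Benjamini-Hochberg over these genes. A count test had been planned in case of counts, and this test on FPKM was used instead. The members and the 10 gene lists (172 genes, of which 158 were in the table) were chosen with earlier results of these data known. Named genes were the 10 members, MTA1, the 3 genes of each list with the smallest adjusted p, tested members of the aquaporin, PDK, PLIN, ANGPTL, RXR and RAR families, and the 5 nearest profiles of ANGPTL4 and AQP3. SMAD3 and FABP6 were added after their values were seen. Cell type markers and related genes that the rule does not cover, among them LPL, CD36, AQP7 and PPARGC1B, are named as a description. A gene that this rule names on the list of partners and coregulators is not reported here.

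Implied depth took 1 step of the low values in genes shorter than 150 bases as 1 fragment, with lengths from GENCODE 29, in which 35749 of 36651 identifiers were found. Between 94.2% and 97.1% of those values were then whole within 0.04. By this measure PDK4 rested on at least 514 fragments in a library and FABP5 on at least 23874. Exons of ACADVL share 85 bases with DLG4 on the opposite strand, and those of FABP5 share 94 with an antisense gene. Promoter windows are RefSeq's; 9 of the 10 members were searched. Alternatives were other pseudocounts, filters, scalings and limma settings, blocking by replicate number, and omission of single libraries. Figures were made with Python 3.11.15 and matplotlib 3.10.9.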

Additional observations from a re-analysis of the deposited data

How the results depend on the processing

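MTA1 was called lower under all 17 alternatives, with log2 differences of -0.58 to -0.49. Log2 differences ran over 1.88 to 2.15 for ANGPTL4, 1.68 to 1.88 for AQP3 and 0.34 to 0.45 for PLIN2, which supports nothing since the list was chosen on this comparison. Of the 10 genes, 3 were called higher, 4 with the filter at 5 FPKM, TPM, upper-quartile scaling, the replicate block or control library 3 left out, 5 under quantile normalization, 6 with array weights, 5 with median centring, which was chosen after the data were seen, and 3 under the other alternatives. None of the 10 was called lower under any of the 17. Over all tested genes, 297 were higher and 379 lower with no filter on low values, 939 lower after upper-quartile scaling, 896 lower after quantile normalization, 1434 higher and 2615 lower with array weights, and 1128 higher and 802 lower with median centring. Leaving out 1 library gave 388 to 631 higher and 640 to 1199 lower. Of the list genes, 3 were higher and 1 lower with no filter, 7 were lower under quantile normalization and under median centring, and 23 were lower with array weights; leaving out 1 library gave 3 to 6 higher and 3 to 13 lower.

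Differences near 0 changed sign without a call: LMF2 under quantile normalization (0.000843), array weights (0.069), median centring (0.0071) and without control library 3 (0.060); PDK2 with array weights (0.020) and without control library 3 (0.0049); FABP5 without siMTA1 library 1 (0.00025); PPARA without control libraries 1 (-0.0040) and 2 (-0.037); RARG without siMTA1 library 3 (-0.024) and control library 2 (-0.024); and SEL1L without control library 3 (-0.0069). Over the libraries left out, these ran from -0.126 to 0.060 for LMF2, -0.111 to 0.0049 for PDK2, -0.114 to 0.00025 for FABP5, -0.037 to 0.079 for PPARA, -0.024 to 0.077 for RARG and -0.0069 to 0.076 for SEL1L. The cause was not tested. Same-numbered libraries correlated in their deviations with r of 0.33, 0.02 and 0.22, and differently numbered ones with r of -0.28 to 0.07. The highest values thus belonged to same-numbered libraries, and an effect shared by them is not excluded. No label states a pairing, and the main fit used none. With the replicate block 992 genes were higher and 2039 lower, and 4 of the 10 genes were higher, PPARD being added. Levels near 0.01 FPKM rest on the last printed decimal, and differences there were not detectable.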
